A study of Mus musculus with 8 samples.

Results

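CC chemokine ligands are small secreted proteins, named for a pair of adjacent cysteines, that draw leukocytes along a gradient. They were examined here as the transcripts of 10 genes, Ccl2, Ccl3, Ccl4, Ccl5, Ccl6, Ccl7, Ccl8, Ccl9, Ccl12 and Ccl24, chosen by symbol from the deposited table of 15867 genes. All 10 of the 10 symbols were found. The RNA came from F4/80+ macrophages (Adgre1 encodes F4/80) isolated from fat of obese mice after 20 weeks on a high-fat diet, with 4 biological replicates in each of 2 groups. The control group had the genotype Mirc11fl/fl Mirc22fl/fl Lyz2+/+ and the knockout group Mirc11fl/fl Mirc22fl/fl Lyz2Cre/Cre. Strain, age and sex of the mice are not given in the sources used here.

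Both groups thus carried Mirc11 and Mirc22, clusters that encode microRNAs of the miR-23, miR-24 and miR-27 families, with loxP sites on either side. Cre was expressed from Lyz2, a gene of myeloid cells, and was knocked in on both Lyz2 alleles. No group carried Cre with intact clusters, so the loss of the clusters, Cre and the loss of Lyz2 cannot be told apart. The labels do not say whether a replicate was 1 mouse, so the p-values describe the spread among these libraries only.

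As background, CC ligands bind G protein-coupled receptors on leukocytes. CCL2, CCL7 and CCL12 act on CCR2 and recruit monocytes, which become macrophages in obese fat, while mouse CCL8 acts on CCR8. CCL3, CCL5, CCL6 and CCL9 act on CCR1, CCL4 is a close relative of CCL3, and CCL24 (eotaxin-2) on CCR3, the receptor of eosinophils. Several of these genes are induced by NF-kB and interferon signalling.

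Recovered totals ran from 31789395 to 46621080 reads a library. Lyz2 measured 175874 ± 22446 normalized counts in control and 208 ± 45.0 in knockout macrophages (mean ± SD, n = 4 per group here and below; single values are listed in the order of replicates 1 to 4), with no overlap of the groups, and each library matched its label at this gene. Adgre1 measured 47340 ± 7761 and 40553 ± 2504. The 8 listed macrophage markers summed to between 227050 and 289575 normalized counts in control and between 179377 and 191052 in knockout libraries, and 5 of the 8 were called lower. Over all genes tested, 1.24% were called higher and 2.38% lower. The 10 fibroblast markers summed to between 101421 and 172598 in control and between 139879 and 214305 in knockout libraries, and the 10 endothelial markers to between 69909 and 121088 and between 111545 and 159485, with none of either list called. Fibroblast and endothelial transcripts were thus present at high levels in both groups, and none of the listed markers that were tested was at its floor of 1 read in any library. Their part in the results below was not tested, and in bulk RNA fewer cells of a type and less RNA per cell cannot be told apart.

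The microRNAs of the deleted clusters are shown first, since the seed (bases 2 to 8, in capitals) is the part that pairs with target transcripts. Mature sequences are from RefSeq (GRCm38.p6), 5′ to 3′. Mirc11 lies on chromosome 8 and its sequences are on the forward strand, miR-23a-3p at 84208563 to 84208583, miR-27a-3p at 84208727 to 84208747 and miR-24-3p at 84208875 to 84208896. Mirc22 lies on chromosome 13, also on the forward strand, with miR-27b-3p at 63300760 to 63300780.
miR-23a-3p: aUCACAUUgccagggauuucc
miR-27a-3p: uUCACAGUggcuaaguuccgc
miR-27b-3p: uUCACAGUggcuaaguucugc
miR-24-3p: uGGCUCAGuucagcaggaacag
miR-27a-3p and miR-27b-3p share a seed, miR-24-3p is the same from both clusters, and miR-23b-3p was not used here.

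For each ligand, the longest 3′ untranslated region in the annotation (GENCODE M21, mm10) was searched for the reverse complement of each seed. Matches to the seed were found in 4 of the 10 genes, and the sites are printed with the match in capitals, on the transcript strand, because they show which ligands carry letters that pair with the deleted microRNAs.
Ccl7, miR-23: gtctgtaggAATGTGAaatggtcac
Ccl2, miR-27: gtgactcggACTGTGAtgccttaat
Ccl4, miR-27: gtggatatgACTGTGAaattgattt
Ccl9, miR-27: agtggataaACTGTGAgagtggtct
Ccl9, miR-24: tagctgttcCTGAGCCaacacgtgg
The Ccl7 site starts at base 126 of a region of 435 bases, the Ccl2 site at base 11 of 275, and the Ccl4 site at base 251 of 302. The Ccl9 sites start at bases 531 and 2354 of 2465. The Ccl7, Ccl4 and Ccl9 miR-24 sites are 8-base matches, which add an A after the match. Ccl2 and Ccl9 each held 1 further miR-27 match of 6 bases and an A. Ccl3, Ccl5, Ccl6, Ccl8, Ccl12 and Ccl24 held none of these letters. Among 14796 genes with such a region, the 7-base match was present in 16.8% for miR-23, 17.8% for miR-27 and 19.2% for miR-24. The ligands stood at 1 of 10, 3 of 10 and 1 of 10. The share of all genes with a match to any of the 3 seeds was not counted, so the pooled 4 of 10 has no background here. A match is a description of the sequence and not a measured site.

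Across the family, 1 ligand was higher and 1 was lower in knockout macrophages, and 8 were not called. Ccl2 rose and Ccl3 fell, each with no overlap of the groups, while Ccl7 lay above control in 3 of 4 knockout libraries without passing the test. Calls are from limma on log2(normalized count + 1), two-sided, at a Benjamini-Hochberg adjusted p under 0.05 over 15862 genes, all 10 ligands included. In the same fit 3.61% of all genes were called, 1.24% higher and 2.38% lower. The ligands' 2 calls of 10 compare with that background, and 4 ligands had an unadjusted p under 0.05 where 21.2% of all genes did. Differences were positive for 6 ligands and negative for 4, with a median of 0.26 on the log2 scale against 0.00 for all genes. The median SE of the ligands was 0.23, against 0.11 for all genes.

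**Figure D1:**
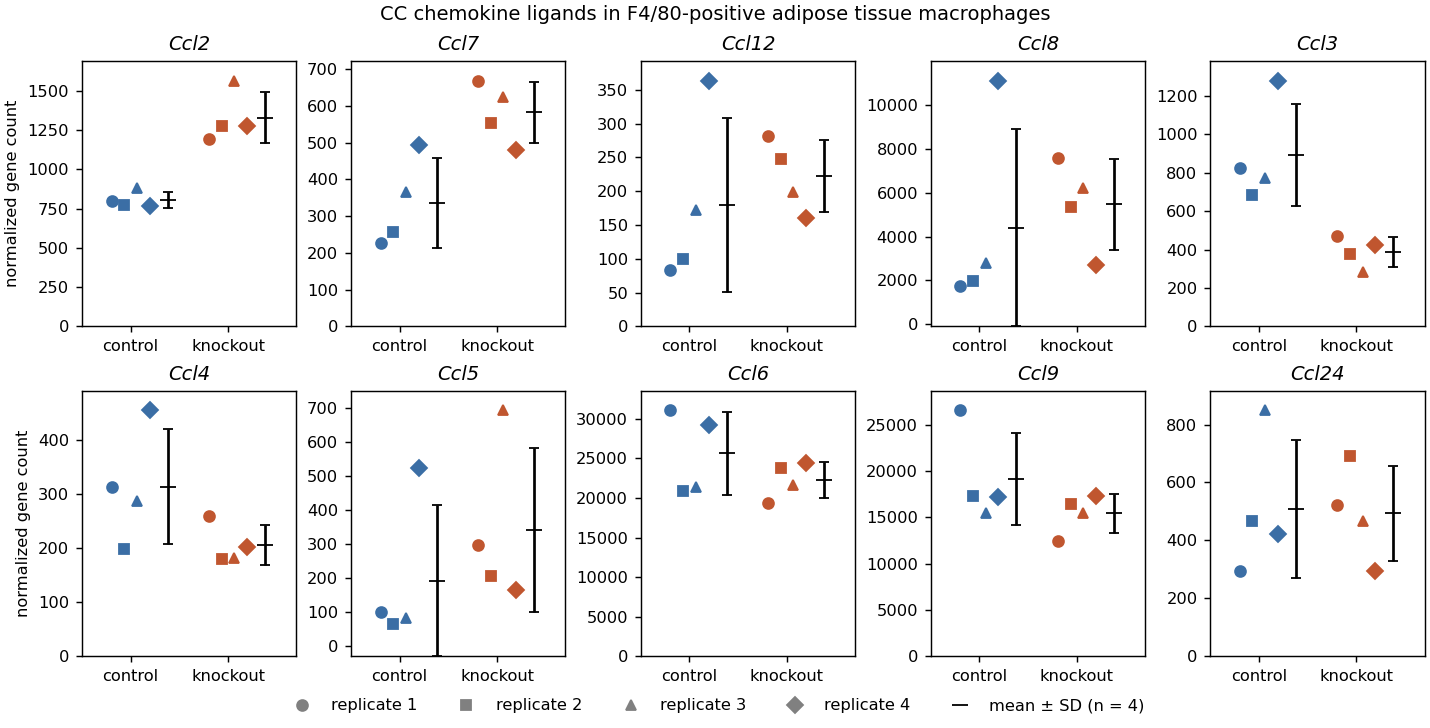
Normalized gene count (y axis, linear) of each of the 10 ligands in the 4 control and 4 knockout libraries, with the mean ± SD beside each group and the marker shape giving the replicate number. The Ccl2 values of the knockout libraries, 1196 to 1565, all lie above the control values of 766 to 879, and the Ccl3 values, 285 to 468, all lie below the control values of 686 to 1279.

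Of the CCR2 ligands, Ccl2 (MCP-1), a major monocyte attractant in obese fat, lies on chromosome 11 from 82035571 to 82037453 (mm10, forward strand). It measured 801, 773, 879 and 766 normalized counts in control libraries and 1196, 1274, 1565 and 1279 in knockout libraries. The control libraries were close together and every knockout library lay above them. The means were 805 ± 51.6 and 1328 ± 162, a log2 difference of 0.72 (SE 0.09, 95% interval 0.51 to 0.92, adjusted p = 0.00641 by limma), or 1.64-fold. Groups in which every knockout value lay above every control value were seen for 5.52% of all genes. The call was made in each of the 8 leave-one-out fits, which drop 1 library each, with edgeR on the recovered reads (adjusted p = 0.00670) and in the authors' deposited table (adjusted p = 1.35e-09). Fibroblasts and endothelial cells also make CCL2, and the median log2 difference of their markers was 0.37 and 0.51, with a part in the Ccl2 values that was not tested.

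Ccl7 (MCP-3), a second CCR2 ligand, lies 3′ of Ccl2 from 82045712 to 82047525. Its normalized counts were 227, 256, 366 and 495 in control libraries and 669, 555, 625 and 482 in knockout libraries. Control replicate 4 (495) and knockout replicate 4 (482) were the only libraries to overlap. The means were 336 ± 122 and 583 ± 82.1, a log2 difference of 0.85 (SE 0.23, 95% interval 0.32 to 1.38), which did not pass the test (adjusted p = 0.0835 by limma). Without control replicate 4 the difference was 1.06 with an adjusted p of 0.0305 by limma, and in the authors' deposited table the adjusted p of Ccl7 was 0.0147. That table, with 10.9% of its 14309 genes called, called 3 ligands, Ccl2, Ccl3 and Ccl7.

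Ccl12 (MCP-5 in mouse), the third CCR2 ligand, spans 82101845 to 82103400. It measured 83.5, 99.6, 173 and 363 normalized counts in control libraries and 282, 247, 199 and 161 in knockout libraries. Control replicate 4 was the highest of all 8 libraries and knockout replicate 4 the lowest of its group. The log2 difference was 0.52 (SE 0.42, adjusted p = 0.524 by limma), and 0.94 without control replicate 4 (adjusted p = 0.137 by limma).

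Ccl8 (MCP-2), the CCR8 ligand in mouse, lies at the far end of the same group of genes, from 82115185 to 82116799. Its normalized counts were 1740, 1954, 2809 and 11101 in control libraries and 7589, 5346, 6218 and 2704 in knockout libraries. Control replicate 4 stood far above the other controls, and 3 of 4 knockout libraries lay above the other 3 controls. The means were 4401 ± 4491 and 5464 ± 2059, a log2 difference of 0.67 (SE 0.57, 95% interval -0.61 to 1.96, adjusted p = 0.542 by limma). Without control replicate 4 the difference was 1.27 and still not called (adjusted p = 0.0988 by limma).

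Ccl12 and Ccl8 placed the same libraries at the ends of their ranges, with control replicate 4 highest, knockout replicate 1 next and control replicate 1 lowest. Their 5′ sequences were therefore set side by side, with 250 bases before and 50 after the annotated start, from RefSeq (GRCm38.p6), forward strand, chr11:82101595-82101894 and chr11:82114935-82115234. Capitals mark the TATAAA letters.
Ccl12: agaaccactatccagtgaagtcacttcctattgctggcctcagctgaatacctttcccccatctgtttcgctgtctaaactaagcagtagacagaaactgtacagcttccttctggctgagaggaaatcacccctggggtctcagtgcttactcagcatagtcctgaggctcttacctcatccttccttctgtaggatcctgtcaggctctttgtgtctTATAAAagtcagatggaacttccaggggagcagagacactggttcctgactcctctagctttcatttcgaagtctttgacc
Ccl8: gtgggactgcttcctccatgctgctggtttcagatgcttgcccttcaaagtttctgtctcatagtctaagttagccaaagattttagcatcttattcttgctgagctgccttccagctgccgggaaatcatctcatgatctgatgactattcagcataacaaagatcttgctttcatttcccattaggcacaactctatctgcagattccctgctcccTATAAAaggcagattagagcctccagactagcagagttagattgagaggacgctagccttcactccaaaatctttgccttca
The letters TATAAA start 31 bases before the start of Ccl12 and 32 before that of Ccl8. Of 11904 genes with promoter windows of this length, 10.2% held them on either strand. Of the other motifs searched on both strands, AP-1 (TGANTCA, in 6.96% of these genes), the IRF core (GAAANNGAA, 9.11%), STAT (TTCNNNGAA, 8.44%), CCAAT (42.8%) and the NF-kB consensus (6.28%), neither window held one.

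In the group of Ccl3, Ccl4 and Ccl5, Ccl3 (MIP-1α), which attracts monocytes, neutrophils and T cells, spans 83647844 to 83649355 on the reverse strand of chromosome 11. It measured 823, 686, 773 and 1279 normalized counts in control libraries and 468, 377, 285 and 425 in knockout libraries. Each knockout library lay below each control library, a pattern that 8.21% of all genes showed. The means fell from 890 ± 265 to 389 ± 78.7, a log2 difference of -1.17 (SE 0.21, 95% interval -1.65 to -0.70, adjusted p = 0.0234 by limma), or 0.44-fold. Of the 8 leave-one-out fits 4 did not call it, with adjusted p by limma of 0.0607 without control replicate 3 and 0.0556, 0.0552 and 0.0547 without knockout replicates 2, 3 and 4. edgeR called it (adjusted p = 0.0257; edgeR called 3.51% of all genes), as did the authors' deposited table (adjusted p = 5.81e-06). The sums of the macrophage markers given above were also lower in each knockout library than in each control library. Other lists differed from this. Of 10 resident macrophage markers 8 had positive differences (median 0.12 on the log2 scale, 1 called higher and 1 lower). Of 8 monocyte markers 5 had positive differences (median 0.45, 0 called higher and 1 lower). The part of any of these markers in the Ccl3 values was not tested.

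The 5′ window of Ccl3 is printed because this gene was the called member with a sequence in the table (RefSeq, GRCm38.p6, reverse strand, chr11:83649329-83649628), with capitals marking an IRF core on the reverse strand that starts 39 bases before the annotated start.
Ccl3: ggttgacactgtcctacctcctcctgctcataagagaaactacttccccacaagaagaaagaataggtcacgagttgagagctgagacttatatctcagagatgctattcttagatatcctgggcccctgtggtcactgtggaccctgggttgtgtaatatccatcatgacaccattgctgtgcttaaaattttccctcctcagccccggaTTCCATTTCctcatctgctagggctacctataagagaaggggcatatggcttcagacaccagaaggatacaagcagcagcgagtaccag
Besides TATAAA letters, the Ccl9 window held an AP-1 match 53 bases and an NF-kB match 35 bases before the start, and the Ccl6 window held none of the motifs searched. Windows for Ccl2, Ccl4, Ccl5, Ccl7 and Ccl24 were not used here.

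Ccl4 (MIP-1β), a ligand related to Ccl3 and encoded next to it (83662584 to 83664683, forward strand), measured 314, 198, 288 and 455 normalized counts in control libraries and 259, 179, 182 and 202 in knockout libraries. Knockout replicates 1 and 4 lay within the control range and replicates 2 and 3 below it. The means were 314 ± 107 and 206 ± 37.2, a log2 difference of -0.56 (SE 0.24, 95% interval -1.09 to -0.03, adjusted p = 0.215 by limma), and -0.36 without control replicate 4. The ratio of Ccl3 to Ccl4 within a library, which no scaling between libraries can move, was 2.63, 3.46, 2.69 and 2.81 in control and 1.81, 2.10, 1.57 and 2.10 in knockout libraries.

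Ccl5 (RANTES), a ligand that T and NK cells make in quantity (83525778 to 83530518, reverse strand), measured 99.0, 65.1, 83.0 and 524 normalized counts in control libraries and 299, 207, 696 and 166 in knockout libraries. Control replicate 4 alone reached the level of the knockout libraries. The log2 difference was 1.16 (SE 0.67, 95% interval -0.36 to 2.68, adjusted p = 0.362 by limma), and 1.83 without control replicate 4 (adjusted p = 0.0819 by limma). The 12 T and NK cell markers summed to 526, 560, 516 and 1153 in control libraries and to 1821, 1057, 986 and 685 in knockout libraries. None of the 12 was called, all 12 differences were positive and their median was 0.96 on the log2 scale. The part of these cells in the Ccl5 values was not tested.

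The CCR1 ligands Ccl6 and Ccl9 are made constitutively by mouse macrophages. Ccl6 (83587882 to 83593087, reverse strand) measured 31084, 20885, 21401 and 29249 normalized counts in control libraries and 19355, 23806, 21610 and 24446 in knockout libraries. The groups overlapped, with a log2 difference of -0.18 (SE 0.14, 95% interval -0.51 to 0.14, adjusted p = 0.508 by limma). Ccl9 (83572919 to 83578636, reverse strand) measured 26563, 17357, 15504 and 17252 in control and 12428, 16457, 15511 and 17293 in knockout libraries. Control replicate 1 stood above the rest, and the log2 difference was -0.29 (SE 0.17, 95% interval -0.68 to 0.09, adjusted p = 0.365 by limma).

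Ccl24, the CCR3 ligand that recruits eosinophils and the only member on chromosome 5 (135569937 to 135573049, reverse strand), measured 295, 466, 849 and 423 normalized counts in control libraries and 523, 691, 468 and 293 in knockout libraries. The ranges of the groups overlapped almost in full. The log2 difference was 0.00 (SE 0.34, 95% interval -0.76 to 0.77, adjusted p = 0.998 by limma), and its sign turned in 9 of 18 alternatives. The 8 tested eosinophil and mast cell markers summed to between 970 and 3075 in control and between 2360 and 4366 in knockout libraries. All 8 differences were positive with a median of 1.02 on the log2 scale, and 1 of the 8, Siglecf, was called higher. The list pools genes of both cell types, and Epx, an eosinophil gene on it, was not among the genes tested. Ccr3, the receptor of eosinophils and not on the list, went the other way (-1.22, adjusted p = 0.0148 by limma). The part of these cells in the Ccl24 values was not tested.

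**Figure D2:**
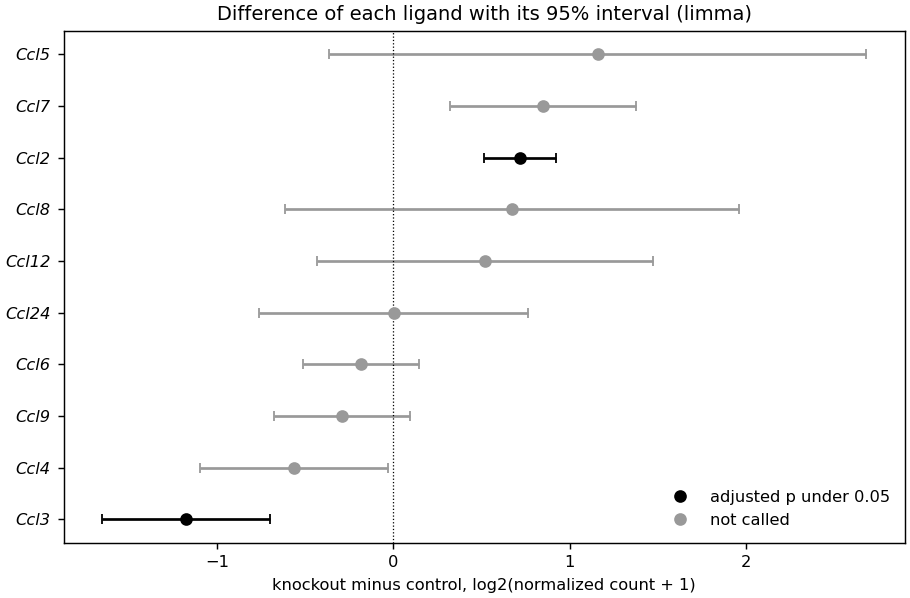
Knockout minus control difference of each ligand in log2(normalized count + 1) (x axis), with its 95% interval from limma, ordered by size, black where the adjusted p was under 0.05. Ccl2 at 0.72 and Ccl3 at -1.17 are the called members, and Ccl5 (1.16) and Ccl8 (0.67) have the widest intervals.

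Only levels per length compare one gene with another. Per kilobase of annotated transcript, Ccl6 was highest in control macrophages (17816 ± 3658), followed by Ccl8 (8612 ± 8788) and Ccl9 (6377 ± 1664), and the ranges of neighbours in this order overlapped. Ccl3 (1162 ± 346) and Ccl2 (990 ± 63.4) came next, below the range of Ccl9 and overlapping with each other. Ccl4, Ccl7, Ccl24, Ccl5 and Ccl12 lay between 335 and 475, each overlapping with the next. In knockout macrophages the order began alike with Ccl6 (15489 ± 1605), Ccl8 (10693 ± 4029) and Ccl9 (5131 ± 707). Ccl2 (1634 ± 199) came next, with a range apart from Ccl9 above and from Ccl7 (727 ± 102) below, and Ccl3 (508 ± 103) had order number 7 in the family. The ratio of Ccl2 to Ccl3 counts within a library was 0.973, 1.13, 1.14 and 0.599 in control and 2.55, 3.38, 5.49 and 3.01 in knockout libraries.

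The ligands varied strongly between libraries of one genotype. Control replicate 4 was the highest control for 6 of the 10 ligands. It was above the mean of its group by 1.79 for Ccl8, 2.01 for Ccl5, 1.26 for Ccl12 and 0.63 for Ccl7 on the log2 scale, and 0.07 below it for Ccl2. Knockout replicate 1 was the highest knockout library for 5 ligands and knockout replicate 4 the lowest for 5. Ccl2 varied least within the control group, with a coefficient of variation of 6.41%, and Ccl5 most, with 115%. Cxcl9, a T cell attractant known to respond to interferon, was high in the same library. It measured 408, 544, 795 and 3642 in control libraries, and 1476, 949, 1777 and 906 in knockout libraries. The 12 genes of the tissue dissociation list summed to 114204, 130502, 148352 and 235202 in control and 175747, 106016, 117667 and 143459 in knockout libraries, again highest in control replicate 4. The part of any of these in the ligand values was not tested.

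**Figure D3:**
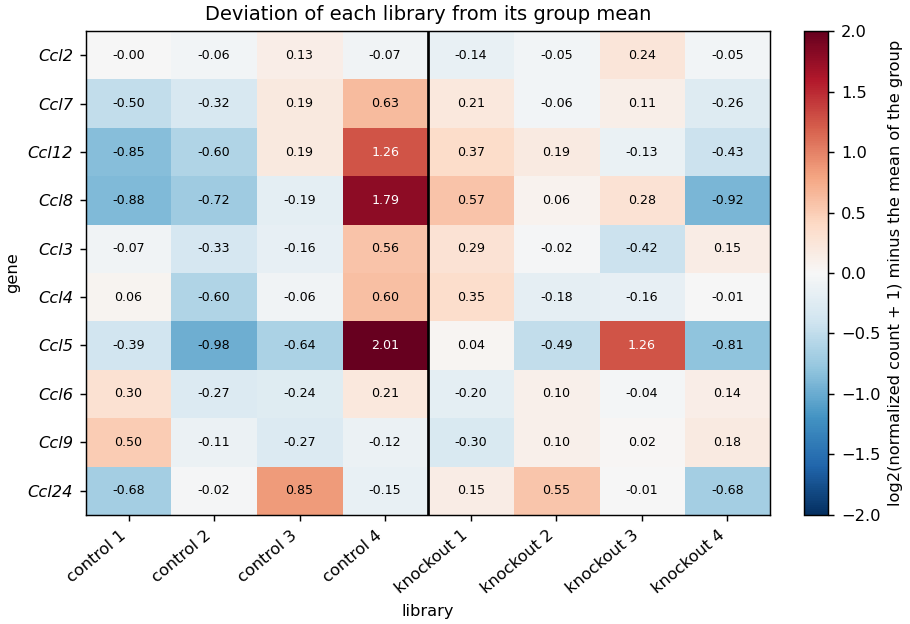
Deviation of each library (columns, 4 control then 4 knockout) from the mean of its own group in log2(normalized count + 1), for the 10 ligands (rows), printed in each cell and coloured from blue (below) to red (above). Control replicate 4 is 1.79 above its group for Ccl8 and 2.01 for Ccl5, while Ccl2 stays within 0.24 of its group mean in every library.

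Ccl2, Ccl7, Ccl12 and Ccl8 lie within 81.2 kb of chromosome 11 with positive differences in all 4, of which only that of Ccl2 was called. Ccl5, Ccl9, Ccl6, Ccl3 and Ccl4 lie within 139 kb, with a positive difference for Ccl5 and negative ones for the other 4, of which only that of Ccl3 was called. Other tested genes within 500 kb numbered 3 and 22, and none was called, where 3.61% of all genes were called by limma. Ccl11, which encodes eotaxin-1 and lies between Ccl7 and Ccl12, measured 833 ± 58.9 and 973 ± 81.9 (0.22, SE 0.08, adjusted p = 0.166 by limma).

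**Figure D4:**
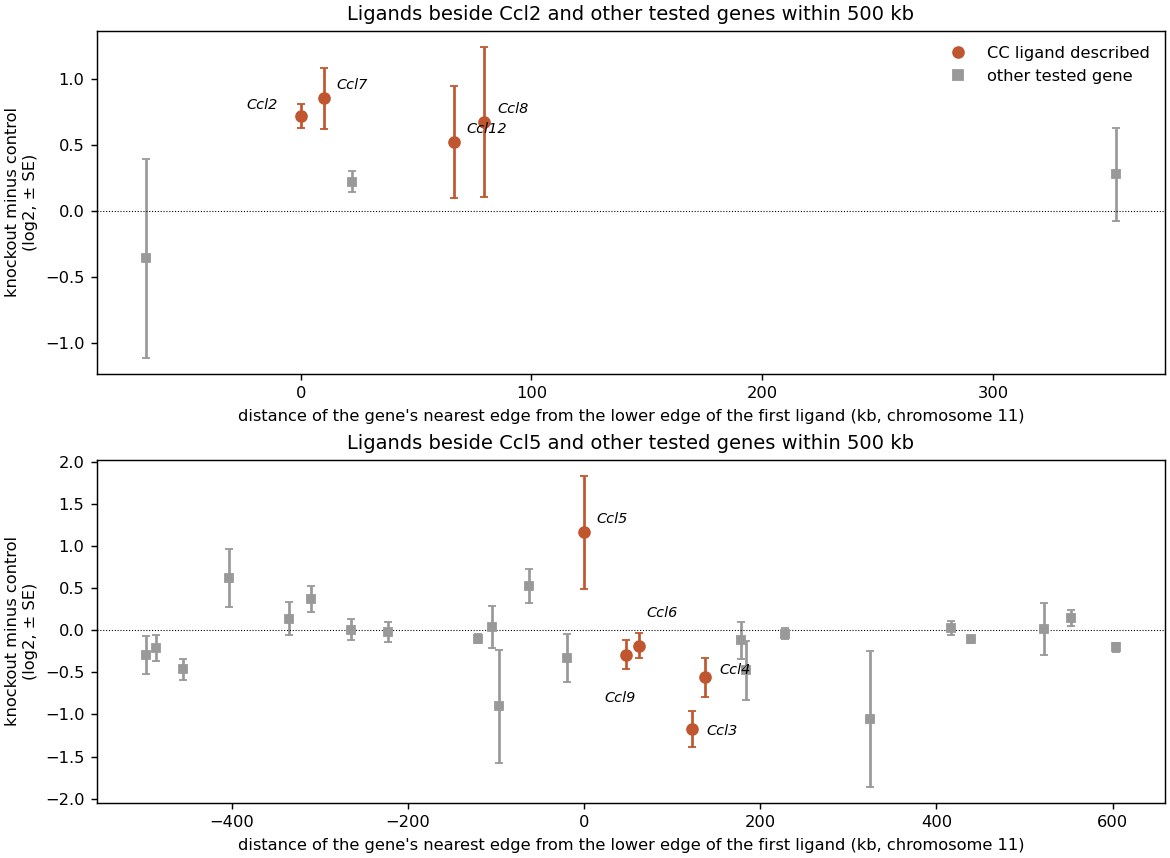
Knockout minus control difference (log2, y axis, bars are ± SE) of each ligand (circles) and of the other tested genes within 500 kb (squares), placed by distance in kb from the first ligand of each group on chromosome 11. In the upper group all 4 ligands lie above 0, and in the lower one Ccl5 lies at 1.16 and Ccl3 at -1.17.

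The receptors of the ligands moved in both directions. Ccr1, a receptor for Ccl3, Ccl5, Ccl6 and Ccl9, measured 689, 643, 791 and 525 normalized counts in control and 896, 1375, 1120 and 936 in knockout libraries, with no overlap. It rose by 0.70 on the log2 scale (SE 0.16, adjusted p = 0.0491 by limma), and none of the 8 leave-one-out fits called it. Ccr3, the receptor of Ccl24, measured 389, 221, 256 and 226 in control and 105, 104, 108 and 140 in knockout libraries and fell by 1.22 (SE 0.19, adjusted p = 0.0148 by limma), a call lost in 1 of the 8. Ccr2, the receptor of Ccl2, Ccl7 and Ccl12, measured 1954 ± 132 and 1651 ± 38.3 (-0.24, adjusted p = 0.0598 by limma), with every knockout library below every control library. The authors' deposited DESeq2 table, with 10.9% of its genes called, did call Ccr2 lower (adjusted p = 0.00677). Ccr8, the receptor of mouse CCL8, was not analysed here. Of 6 genes listed as atypical receptors, Ackr3 rose from 1096 ± 153 to 1507 ± 99.8 (0.47, SE 0.10, adjusted p = 0.0403 by limma), a call lost in 7 of the 8 fits. Most of the 6 encode receptors that bind chemokines without signalling through G proteins. Ackr1, another of the 6, measured 1159 ± 181 and 1641 ± 326 (0.49, adjusted p = 0.111 by limma).

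The other chemokines listed gave no calls. Over all genes limma called 3.61%, and 21.2% had an unadjusted p under 0.05. Of 11 further CC ligands listed, 7 were tested and 0 called by limma, with 1 at an unadjusted p under 0.05, and of 17 CXC, CX3C and XC ligands 11 were tested and 0 called, with 2 at an unadjusted p under 0.05. Their medians were 0.22 and -0.12 on the log2 scale. Cxcl12, in the second list, measured 5765 ± 997 and 7445 ± 1146 (0.37, adjusted p = 0.181 by limma). Of 19 NF-kB, AP-1, IRF and STAT factors, which bind the promoters of many chemokine genes, Rel fell by 0.41 (adjusted p = 0.0298 by limma) and Irf5 by 0.34 (adjusted p = 0.0372 by limma), with calls lost in 6 and 7 of the 8 fits. Fos, another of the 19, measured 27021 ± 10479 and 21806 ± 3450 (-0.25, adjusted p = 0.588 by limma). Of 16 tested inducing cytokines and their receptors, Tnfrsf1b (TNF receptor 2) fell by 0.35 (adjusted p = 0.0322 by limma), a call lost in 6 of the 8. Of 10 regulators of chemokine mRNA decay, 0 were called by limma and 0 had an unadjusted p under 0.05, and Zfp36 (tristetraprolin) measured 20127 ± 8290 and 16277 ± 2894.

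**Figure D5:**
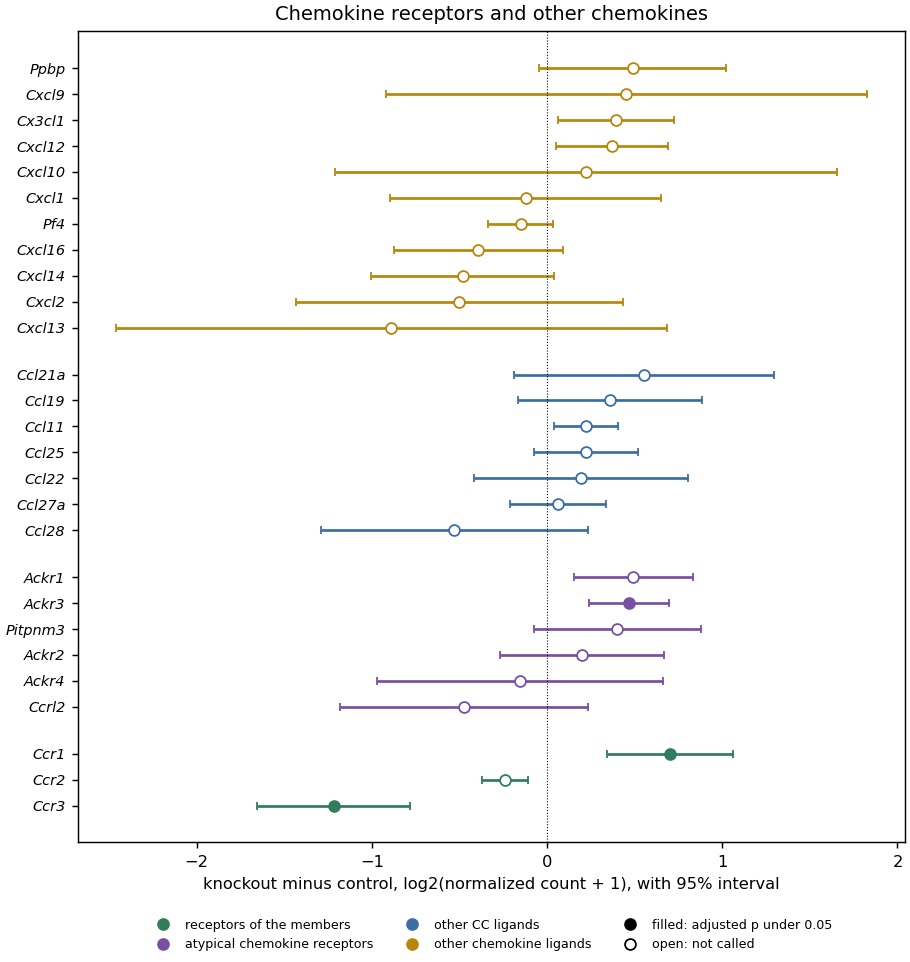
Knockout minus control difference in log2(normalized count + 1) (x axis) with its 95% interval from limma, for measured receptors of the ligands, atypical receptors, other CC ligands and other chemokine ligands (colours), filled where the adjusted p was under 0.05. The filled points are Ccr1 at 0.70, Ccr3 at -1.22 and Ackr3 at 0.47.

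Library profiles were compared by the root mean square difference over the 8 samples, on log2 values centred on each gene's mean, where a small value means a like pattern and the value also falls with the gene's own spread. Nearest to Ccl2 were Adora2b (0.08), H2ax (0.09) and Adi1 (0.09), and nearest to Ccl3 were Cxcr4 (0.18), Cib2 (0.20) and Vsig4 (0.25). Nearest to Ccl8 were Fpr2 (0.27), Mmp25 (0.28) and Cxcl10 (0.30), and to Ccl5 Mmp25 (0.41), Il12rb1 (0.42) and Gm12250 (0.49). Ccl12 was nearest to Slfn1 (0.22), Ly6g6e (0.25) and Gm4951 (0.25), and Ccl7 to AC123856.1 (0.12), Mx1 (0.14) and Pcnx2 (0.19). Ccl4 was nearest to Tnfsf9 (0.17), Ptger2 (0.17) and H4c4 (0.17), Ccl6 to Frmd4b (0.07), AC109138.2 (0.08) and Pex13 (0.08), Ccl9 to Eya4 (0.09), Ndc1 (0.10) and Fnip1 (0.10), and Ccl24 to Nog (0.17), Cd33 (0.20) and Degs2 (0.21). Within the family, Ccl6 and Ccl9, whose own spread was small, differed by 0.16, Ccl12 and Ccl8 by 0.34 and Ccl3 and Ccl4 by 0.35. Among all genes Ccl8 was the 35th nearest to Ccl12, and Ccl12 the 10th nearest to Ccl8. Ccl4 was the 25th nearest to Ccl3, but Ccl3 the 765th nearest to Ccl4. Ccl9 was the 681st nearest to Ccl6, and Ccl6 the 222nd nearest to Ccl9. These are descriptions over 8 samples that share the 2 genotypes.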

How the data were processed

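The 4 control and 4 knockout libraries were prepared from poly(A)-selected RNA, per the labels' protocols. The authors deposited normalized gene counts, a signal that is never negative, and FastQC, cutadapt, Salmon, DESeq2 and the build mm10 appear in the submitters' processing notes, without versions. In every column all values were whole reads divided by 1 factor, within 0.01 reads. The factor of control replicate 4 is close to 1, where rounded values would look the same. No source used here says whether 1 read was added before scaling. A second deposited table, from DESeq2, gives, per the file headers, log2 fold changes as control over knockout (turned in sign here), score columns and p-values.

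Genes with a mean of at least 10 (15862) were tested with limma 3.58.1 (R 4.3.3; eBayes with trend) on log2(value + 1), two-sided, without covariates. The count models edgeR 4.0.16 and DESeq2 1.42.0 were alternatives, run on the recovered reads. Recovered totals were 46621080, 36298146, 32667230 and 39096816 reads in control and 41495226, 31789395, 34603062 and 36582677 in knockout replicates 1 to 4. The lowest ligand value, Ccl5 in control replicate 2, stands for 64 reads, so counting error is not negligible for the lowest ligands.

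Groups were taken from the genotype label. The ligands and the 18 gene lists were chosen with earlier results of these data known. Named genes are the 10 ligands, the called genes and that with the highest mean count over the 8 libraries (not per length) in the chemokine-related lists and the 3 genes nearest to each ligand; Cxcl9 was chosen after its values were seen, and the marker and tissue dissociation lists are given as sums and counts. Some genes that the rule names are left out. Gene positions, 3′ untranslated regions and transcript lengths came from GENCODE M21 (mm10), microRNA and promoter sequences from RefSeq (GRCm38.p6), which matched 5 of the 10 ligands for promoters. Of the transcripts' 31-base words, 3.75% of Ccl9, 1.02% of Ccl6 and 0% to 0.539% of the others occur in other genes. No source used here states whether counting used strand. The test was checked on simulated counts with the same relative spread set for every gene. That spread was below the spread of ligands such as Ccl5 and Ccl8, so the check does not cover genes this variable.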

Additional observations from a re-analysis of the deposited data

Results flagged for a closer look

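Across the 20 sets of 4 libraries (10 ligands in 2 groups), 3 held a library beyond a set limit on the gap over the range. The limit was applied to linear normalized counts, not to the log2 values used in the tests. Whether these libraries stand apart on the log2 scale was not tested. The sets share libraries, control replicate 4 for both Ccl8 and Ccl5, so they are not independent and no chance rate is given. Ccl8 measured 11101 normalized counts in control replicate 4, and the nearest control was 2809, a gap of 0.886 of the range. Ccl5 measured 524 in control replicate 4, and the nearest control was 99.0, a gap of 0.926 of the range. Ccl9 measured 26563 in control replicate 1, and the nearest control was 17357, a gap of 0.832 of the range. Without control replicate 4 the log2 difference was 1.27 for Ccl8 and 1.83 for Ccl5, neither of them called by limma.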

How the results depend on the processing

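Over 18 alternatives, 162 of 180 ligand results kept their direction and their side of the threshold. Most of the 162 were of ligands that were not called. Of the called ligands, Ccl3 lost its call in 5 of the 18 alternatives and Ccl2 in 1. The ligands called numbered 1 higher and 1 lower; with array weights and with DESeq2 there were 2 higher, and leaving out 1 library gave 1 to 2 higher and 0 to 1 lower. All genes called numbered 196 higher and 377 lower, and 51 to 189 higher and 112 to 313 lower without 1 library. Array weights gave 397 higher, DESeq2 666 higher and 891 lower, and scaling to the same total 245 higher and 244 lower. Replicate numbers do not pair the samples (correlations of -0.20, -0.20, -0.04 and -0.29), and with a replicate block 0 genes were higher, 7 lower and 0 ligands called either way (Ccl2 0.0740 and Ccl3 0.0983, adjusted p by limma). Ccl24 turned to -0.045 (quantile normalization), -0.39 (array weights), -0.033 (edgeR) and -0.040 (DESeq2), and lay between -0.22 and 0.28 without 1 library. Zfp36 lay between -0.41 and 0.0086 without 1 library, above 0 only without control replicate 4. The cause was not tested. For the 8 ligands not called, changes inside their intervals were not detectable with 4 samples a group.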
